A study of Mus musculus with 28 samples.

Results

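A set of 34 genes of the lysosome was followed in the bulk RNAseq data of 28 subcutaneous mouse tumors. They encode 4 proteins of the lysosomal membrane, 10 proteases, 9 glycosidases, 6 proteins of lipid handling or enzyme cofactors, 4 parts of the proton pump, and the transcription factor Tfeb. The genes were chosen by name, and 34 of the 34 names were found among the 55341 gene names of both deposited count files. The tumors grew on the flank of female BALB/c.AusBP mice, 8 to 10 weeks old, from AB1-HA, a single mouse mesothelioma line that carries influenza hemagglutinin. Treatment began when tumors reached 20 to 25 mm2, and whole tumors were taken on day 7. The vehicle PBS was given to 4 mice. Immune checkpoint blockade (ICB, 100 µg of anti-CTLA-4 in 1 dose and 100 µg of anti-PD-L1 in each of 3 doses) was given to 5 mice. The chemotherapy 5-fluorouracil (5-FU, 75 mg/kg, intravenous) was given to 5 mice and cisplatin (6 mg/kg, intraperitoneal) to 4. Another 5 mice received 5-FU+ICB and 5 received cisplatin+ICB. Each tumor came from a different mouse.

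The lysosome is the acidic compartment in which cells break down proteins, sugars and lipids. A proton pump, the V-ATPase, acidifies it, soluble hydrolases work at that low pH, and membrane glycoproteins line it and carry ions and lipids out. The transcription factor TFEB and its relatives drive many of these genes by binding to a short palindromic element in their promoters. Macrophages and osteoclasts are rich in lysosomes, so in a whole tumor these transcripts come both from cancer cells and from cells that have entered it.

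The element that TFEB is known to bind was looked for in the promoters, from 250 bases before to 50 bases after the start of each gene in RefSeq (GRCm38.p6), where 29 of the 34 genes had an entry. The letters TCACGTGA, which read the same on both strands, occurred in the promoters of 6 of these 29 genes (20.7%), Atp6v0d1, Atp6v1a, Ctsa, Ctsd, Gla and Mcoln1, and in 1.12% of the 27025 genes with a promoter entry. The shorter core CACGTG, which lies inside TCACGTGA, was in 11 of 29 (37.9%) and in 8.09% of all. With 1 more letter on either side, a G before and a C after TCACGTGA, the palindrome was in 0 of the 29 and in 0.37% of all. TCACGTG was in 10 of the 29 (4.29% of all) and CATGTGAC in 3 (1.58% of all), each searched on both strands. A match describes these windows and does not show that the site is used. A protease, a glycosidase, a membrane channel and a pump subunit are shown with the element in capitals, each sequence 5′ to 3′ on the strand of its gene, up to 20 bases on either side and ending before the start of transcription.
Ctsa, cathepsin A, chr2:164833740-164833772, plus strand: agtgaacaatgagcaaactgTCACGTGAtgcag
Ctsd, cathepsin D, chr7:142387899-142387946, minus strand: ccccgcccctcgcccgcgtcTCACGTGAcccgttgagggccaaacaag
Gla, alpha-galactosidase A, chrX:134601173-134601220, minus strand: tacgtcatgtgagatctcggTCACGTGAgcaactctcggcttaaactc
Mcoln1, the calcium channel mucolipin 1, chr8:3500453-3500500, plus strand: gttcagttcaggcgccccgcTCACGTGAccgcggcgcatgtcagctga
Atp6v1a, the catalytic A subunit of the pump, chr16:44139364-44139411, minus strand: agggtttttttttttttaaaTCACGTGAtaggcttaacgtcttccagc

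Each tumor had between 23541733 and 33950805 estimated counts, and the lowest count of any of the 34 genes in any tumor was 70. Levels are given as CPM, counts scaled to a library of the same normalized size in every tumor, as mean ± SD over the 4 or 5 tumors of a group or tumor by tumor. The mesothelioma marker Msln was present (271 to 358 CPM in PBS tumors), whereas Wt1, Upk3b, Lrrn4, Krt18 and Krt19 were near 0 there. Some tumors stood apart. In the first cisplatin+ICB tumor, Gaa was at 9.23 CPM against 102 to 121 in the other 4, and Grn at 60.7 against 533 to 928. In that same tumor Ctsl was at 1847 CPM against 749 to 844, and the summed fibroblast markers were at 858 CPM against 3177 to 3798. Its osteoclast markers summed to 3664 CPM against 1090.2 to 1411, and its mesothelioma markers to 665 CPM against 133 to 268. The second 5-FU+ICB tumor had the lowest mean of the 34 genes in its group, and its summed macrophage markers were at 1837 CPM against 4332 to 8591 in the others. The third 5-FU tumor had the highest mean of its group, with macrophage markers at 8206 CPM against 2258 to 4028. The fifth 5-FU+ICB tumor had summed B cell markers of 769.98 CPM against 13.4 to 29.97 in the others, muscle markers of 4357 against 2.36 to 839 CPM, and endothelial markers of 616 against 150.4 to 311 CPM. The third ICB tumor had summed muscle markers of 3157 CPM against 1.61 to 234 CPM in the other ICB tumors.

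Together the 34 genes took 0.993 ± 0.0954% of all counts in PBS tumors, 2.96 ± 0.773% after ICB, 1.38 ± 0.611% after 5-FU, 1.07 ± 0.158% after cisplatin, 2.07 ± 0.680% after 5-FU+ICB and 1.70 ± 0.612% after cisplatin+ICB. Per kilobase of exon in PBS tumors, the most abundant transcript was that of Psap, the precursor of the saposins that help sphingolipid hydrolases, at 476 ± 10.4 CPM per kb. The aspartic protease Ctsd followed at 437 ± 101, then the cysteine protease Ctss at 333 ± 58.6 and the membrane glycoprotein Lamp1 at 286 ± 49.4 CPM per kb, and these last levels differed by less than an SD. The lowest levels were those of Tfeb (3.33 ± 0.439) and of Idua, the alpha-iduronidase that trims glycosaminoglycans (1.91 ± 0.335 CPM per kb). After ICB, Psap stood at 3294 ± 1409 and Ctss at 2299 ± 835 CPM per kb, followed by Ctsd at 875 ± 305 CPM per kb.

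The mean of the 34 genes on the log2 CPM scale was 7.14, 7.16, 7.26 and 7.37 in the 4 PBS tumors. It was 7.85, 8.04, 8.29, 8.63 and 8.71 in the 5 ICB tumors, 7.03, 7.04, 7.15, 7.48 and 8.13 in the 5-FU tumors and 7.09, 7.11, 7.27 and 7.40 in the cisplatin tumors. It was 7.07, 7.83, 8.13, 8.13 and 8.27 in the 5-FU+ICB tumors and 7.20, 7.21, 7.84, 7.86 and 7.87 in the cisplatin+ICB tumors. Every ICB tumor lay above every PBS tumor, while the other 4 groups overlapped with PBS. The PBS group averaged 7.23 ± 0.10 and the cisplatin group 7.22 ± 0.15, next to 7.37 ± 0.46 with 5-FU. With ICB the mean was 8.30 ± 0.37, with 5-FU added 7.89 ± 0.49 and with cisplatin added 7.60 ± 0.36. The mean after 5-FU was 0.13 above that of PBS and 0.15 above that of cisplatin, and without the third 5-FU tumor these differences were -0.057 and -0.041. The mean after 5-FU+ICB was 0.42 under that of ICB and 0.29 above that of cisplatin+ICB, and without the second 5-FU+ICB tumor the differences were -0.21 and 0.50. Without the first cisplatin+ICB tumor the difference between the combinations was 0.19, and without the third cisplatin+ICB tumor it was 0.19 as well. With the median of the 34 genes in place of the mean, the difference from PBS was 0.60 for ICB instead of 1.07, 0.20 for 5-FU+ICB instead of 0.65, 0.012 for cisplatin+ICB instead of 0.36, and -0.34 for 5-FU instead of 0.13. By the median, 5-FU was also 0.24 under cisplatin, and cisplatin+ICB was 0.11 above cisplatin instead of 0.38. The SD was at least 0.36 in the groups given ICB or 5-FU and at most 0.15 in the PBS and cisplatin groups. In whole tumors, fewer or more cells of a type and less or more RNA per cell cannot be told apart.

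**Figure D1:**
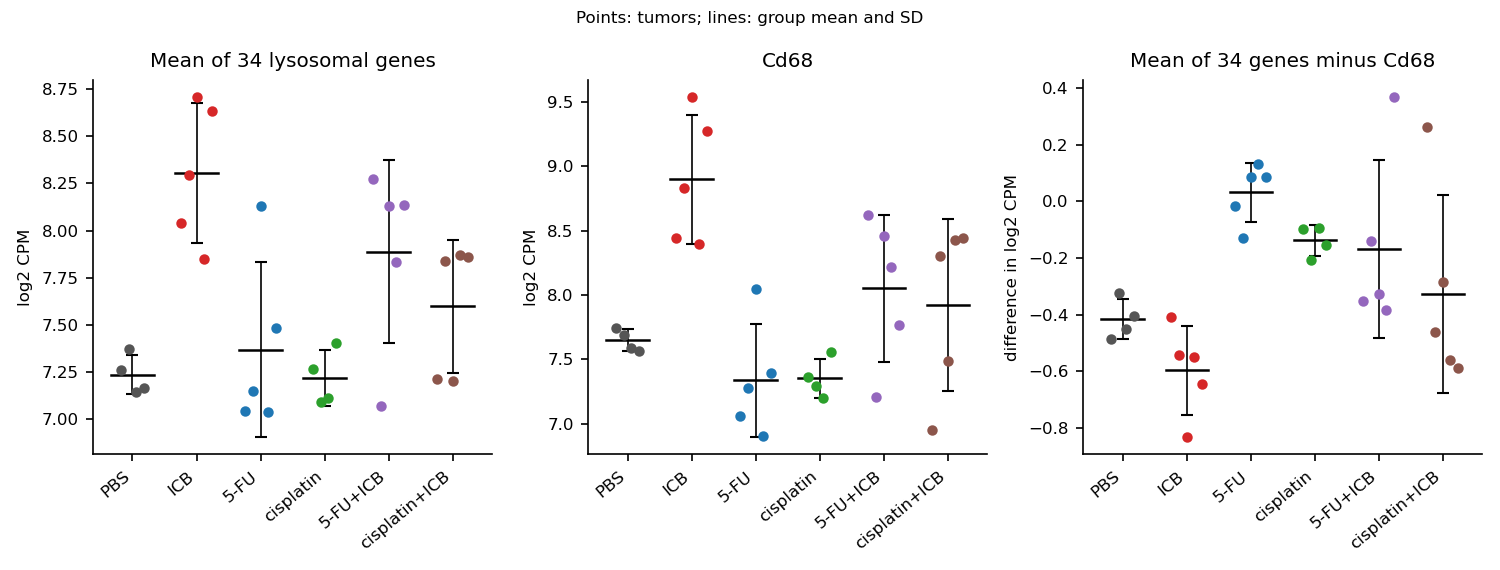
Each point is a tumor, in 6 treatment groups, and lines mark the group mean and SD. The panels plot the mean of the 34 lysosomal genes, the macrophage gene Cd68, and the first minus the second, all in log2 CPM. The ICB tumors lie above the PBS tumors in the first panel, and relative to Cd68 the 5-FU tumors (-0.13 to 0.13) lie above the PBS tumors (-0.49 to -0.32). Relative to Cd68 the median of all genes moved by 0.34 for 5-FU against PBS.

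Checkpoint blockade alone was compared with PBS first. Of the 34 genes, 25 were differentially expressed genes (DEGs) and all 25 rose, against 19% of the 17916 genes tested that rose and 18.8% that fell. To count as a DEG, a gene needed an adjusted p under 0.05 in edgeR's quasi-likelihood test (Benjamini-Hochberg, over all genes) and a log2 fold change beyond 0.5 in size. The median log2 fold change was 1.00 over the 34 genes and -0.03 over all genes tested. In 18 of the 34 genes every ICB tumor was above every PBS tumor, as in 15.8% of the genes tested. Proteases (9 of 10), glycosidases (8 of 9), membrane proteins (3 of 4), lipid genes and cofactors (4 of 6) and Tfeb rose, and 0 of the 4 members of the proton pump passed both thresholds in edgeR. In the same tumors 8 of 8 macrophage markers rose, and their summed level was 3555 to 9951 CPM against 1633 to 2399 in PBS tumors, without any marker at 0. Markers of other cells moved as well. Apart from the monocyte markers, the levels given for them did not overlap with PBS. T cell markers (6 of 6 rose) summed to 158 to 594 against 24.6 to 31.4 CPM, neutrophil markers (2 of 4 rose) to 59.1 to 164 against 9.11 to 17.9 CPM, and the leukocyte gene Ptprc was at 245 to 443 against 75.0 to 105 CPM. Dendritic cell markers (2 of 5 rose) summed to 21.6 to 50.01 against 11.3 to 18.8 CPM and endothelial markers (1 of 4 rose) to 126 to 259 against 62.9 to 123 CPM. Of 4 monocyte markers 2 rose, Chil3 and Ly6c2, and their sum was 256 to 462 against 163 to 327 CPM. The mesothelioma markers, of whose sum Msln makes up most, summed to 54.8 to 218 CPM after ICB against 273 to 361 CPM, while of the 4 tested 0 fell and 1, Wt1, rose by edgeR. The part of any of these markers in the results was not tested.

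**Figure D2:**
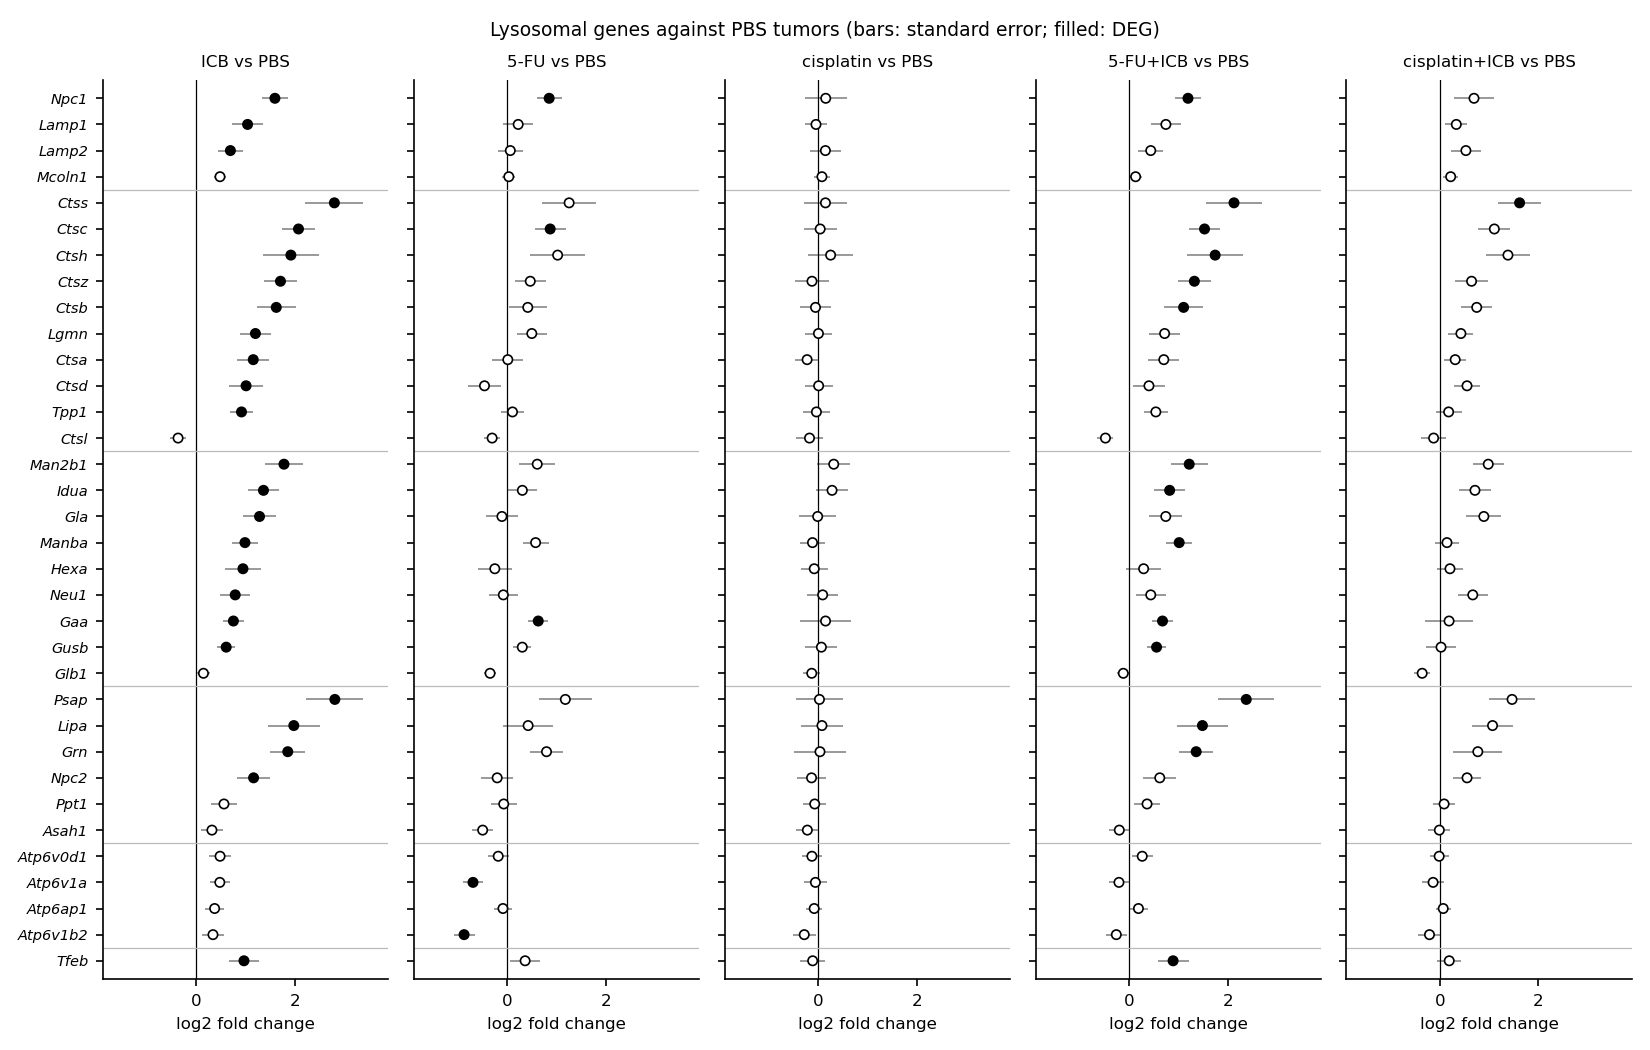
Log2 fold change against PBS with its SE (edgeR) for each of the 34 genes, grouped by role, in 5 comparisons; filled points are DEGs. The filled points are 25 for ICB, 5 for 5-FU, 15 for 5-FU+ICB, 0 for cisplatin and 1 for cisplatin+ICB.

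Among the membrane proteins, Lamp1, the glycoprotein that coats the inner face of the lysosome, was at 543, 571, 646 and 789 CPM in PBS tumors and at 769, 1131, 1352, 1561 and 1676 CPM in ICB tumors. The lowest ICB tumor lay just under the highest PBS tumor and the other 4 lay above. Lamp1 rose by 1.04 (SE 0.31, adjusted p = 0.0129) on the log2 scale in edgeR's test. Npc1, the cholesterol exporter of the lysosomal membrane, was at 25.5, 32.4, 44.7 and 52.9 CPM against 73.5, 81.8, 118, 143 and 154 CPM, groups that did not overlap. Lamp2, needed for fusion with autophagosomes, went from 308 ± 88.3 to 495 ± 103 CPM and was also a DEG, although in only 3 of the 9 fits that each left out 1 tumor. Mcoln1 was at 27.2 ± 1.86 against 37.2 ± 2.33 CPM without overlap, but its change was under the fold threshold.

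The proteases held several of the largest rises. Ctss, cathepsin S, which trims the invariant chain of MHC class II in antigen-presenting cells, was at 393, 422, 426 and 570.1 CPM in PBS tumors and 1456, 2497, 3528, 3943 and 4188 CPM in ICB tumors. All ICB tumors lay far above all PBS tumors, and the rise was 2.80 (SE 0.59, adjusted p = 0.00179) on the log2 scale by edgeR. Ctsc, cathepsin C, the activator of granule serine proteases, was at 316, 341, 357 and 398 CPM against 1212, 1227, 1286, 1806 and 1825 CPM. Its groups did not overlap either, with a rise of 2.07 (SE 0.33, adjusted p = 0.000386) by edgeR. Ctsh, an aminopeptidase, rose by 1.92 (SE 0.57, adjusted p = 0.0129) by edgeR with groups that overlapped, from 63.2 ± 36.2 to 239.5 ± 81.5 CPM. Ctsa, Ctsb, Ctsz, Lgmn (the asparaginyl endopeptidase legumain) and Tpp1 were DEGs without overlap, and Ctsd was a DEG with overlap, in 4 of the 9 fits with a tumor left out. The exception was Ctsl, cathepsin L, at 1101 ± 162 CPM in PBS and 842 ± 139.9 CPM in ICB tumors, which was not a DEG.

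Glycosidases, which remove sugars from glycolipids and glycoproteins, had a median log2 fold change of 0.94, next to 1.41 for the proteases. Gusb, beta-glucuronidase, was at 89.4, 128, 132 and 146 CPM in PBS and 148, 153, 158, 229 and 233 CPM in ICB tumors. The groups were separated by a small gap, and Gusb rose by 0.60 (SE 0.19, adjusted p = 0.0159) on the log2 scale by edgeR, a call that was lost without the second PBS tumor. The alpha-mannosidase Man2b1 went from 112 ± 8.20 to 377 ± 107 CPM, and Gla from 25.6 ± 9.92 to 62.2 ± 18.6 CPM. Hexa, Gaa, Idua, Manba and Neu1 also rose, Hexa and Neu1 in only 3 of the 9 fits with a tumor left out. The calls of Lamp2, Hexa and Neu1 were lost without any one of the first, the third and the fourth PBS tumors and the second, the third and the fifth ICB tumors, and that of Ctsd without the same tumors except the second ICB tumor. Glb1, beta-galactosidase, was the exception, at 84.6 ± 8.76 against 91.8 ± 16.8 CPM. Its gene span overlaps that of Tmppe on the same strand, so its counts are less certain.

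In the group of lipid genes and cofactors, Psap was at 1281, 1285, 1319 and 1341 CPM in PBS tumors, which lay close together, and at 4727, 5753, 8851, 12747 and 13114 CPM in ICB tumors. The lowest ICB tumor was well above the highest PBS tumor, and the rise, the largest of the 34, was 2.81 (SE 0.58, adjusted p = 0.00156) by edgeR. Lipa, the acid lipase that frees cholesterol from its esters, rose by 1.98 (SE 0.53, adjusted p = 0.00704) by edgeR, from 65.4 ± 20.9 to 258 ± 146 CPM. Npc2, the soluble partner of Npc1, and Grn, the progranulin gene, were DEGs without overlap. The thioesterase Ppt1 (123 ± 32.0 against 180.4 ± 32.4 CPM) and the ceramidase Asah1 (201 ± 41.0 against 248 ± 45.8 CPM) were not DEGs.

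The 4 members of the proton pump had a median log2 fold change of 0.42 and none was a DEG. Atp6v1a was at 160.1, 177, 202 and 212 CPM in PBS and 182, 198, 225, 335 and 355 CPM in ICB tumors. The ICB tumors overlapped with PBS at their lower end, and the log2 fold change was 0.47 (SE 0.21, adjusted p = 0.0739) by edgeR. Atp6v1b2, the B subunit of the catalytic head, Atp6v0d1, which links head and membrane ring, and the accessory protein Atp6ap1 missed the threshold as well. Tfeb was at 11.8, 12.4, 13.6 and 15.8 CPM in PBS and 15.0, 21.1, 28.7, 29.6 and 33.5 CPM in ICB tumors, with 1 ICB tumor inside the PBS range. It rose by 0.97 (SE 0.31, adjusted p = 0.0207) on the log2 scale by edgeR, and the call was lost without the first PBS tumor, the second PBS tumor or the third ICB tumor. Of the genes with the TFEB element, 3 of 6 were DEGs after ICB, with a median log2 fold change of 0.74, against 19 of 23 and 0.99 for the genes whose promoter window lacks it.

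**Figure D3:**
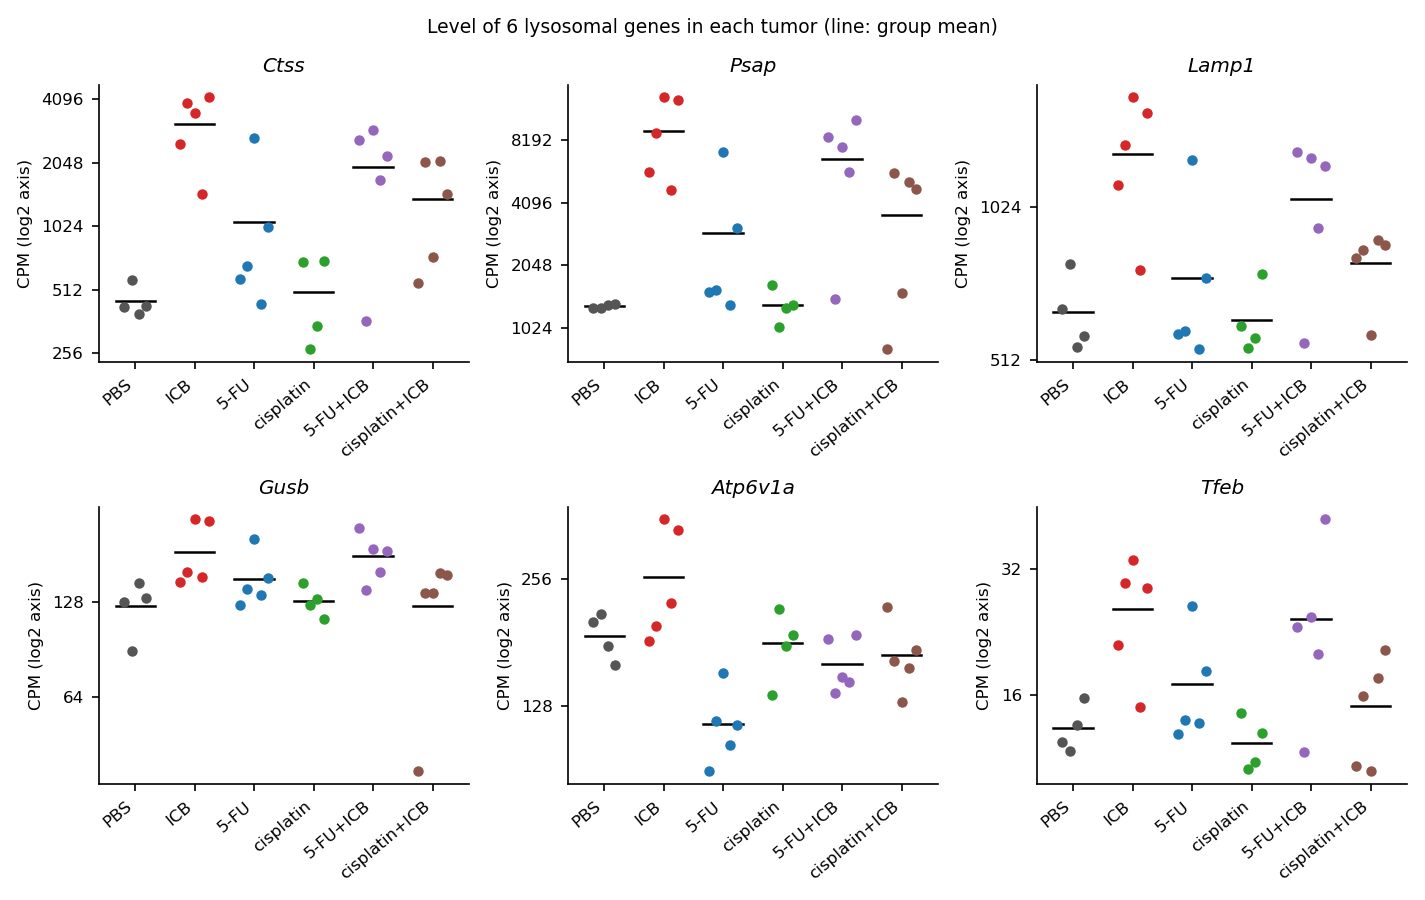
CPM of 1 gene of each role in every tumor (log2 axis), by treatment group, with a line at the group mean. Ctss and Psap are higher in all ICB tumors than in all PBS tumors, Atp6v1a is lower in all 5-FU tumors than in all PBS tumors, and 1 cisplatin+ICB tumor is low for Gusb (37.2 CPM).

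Other genes of the lysosome, taken from lists that are not among the 34, were counted the same way for ICB against PBS, where 19% of all genes tested rose and 18.8% fell. Of 28 other hydrolases and cofactors, 14 rose and 1 fell. Gm2a, the GM2 ganglioside activator, rose by 2.32 (SE 0.55, adjusted p = 0.00341) by edgeR, and Aga, aspartylglucosaminidase, fell by 0.66. Of 19 other membrane proteins and transporters, 11 rose and 1 fell, led by Slc11a1, the phagosomal metal transporter of macrophages, with a rise of 4.23 (SE 0.69, adjusted p = 0.000447) by edgeR. Of 14 other pump subunits, 4 rose, among them Atp6v0a1 (1.17) and Atp6v0c (0.82), and Atp6v1g1 fell by 0.53. Of 14 regulators of lysosome biogenesis, 7 rose, led by the GTPase gene Rragd (2.16) and Tfec (1.61), a relative of Tfeb. Of 6 tested inhibitors of cathepsins, 1 rose, Cst7, cystatin F, by 3.16 (SE 0.65, adjusted p = 0.00159). Of 11 sorting genes 3 rose, as did 3 of 10 autophagy genes. With so few genes, the counts of the inhibitor, sorting and autophagy lists are not set apart from the share over all genes.

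5-FU alone gave a different mixture. Of the 34 genes, 3 rose and 2 fell, against 9.98% and 13% of all genes tested, so the share that rose was near the background and the share that fell was below it. The median log2 fold change was 0.16 over the 34 and -0.01 over all genes. Without the third 5-FU tumor, 3 of the 34 were DEGs and 0 of them rose in edgeR's test. Without the fifth 5-FU tumor 3 were DEGs, 1 of which rose, and without the first or the second PBS tumor 1 was. The share of all genes called in these fits was 16.5%, 14.1%, 10.5% and 7.87%, in the order given. DESeq2 called 6 of the 34 with all tumors, 4 of them higher.

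The genes that fell encode parts of the catalytic head of the pump. Atp6v1a was at 89.2, 103, 115, 117 and 153 CPM in 5-FU tumors, every one under the lowest PBS tumor (160.1 to 212 CPM). It had a log2 fold change of -0.70 (SE 0.21, adjusted p = 0.0216) by edgeR. Atp6v1b2 was at 227, 236, 302 and 307 CPM in PBS tumors and 110.1, 132, 146, 151 and 189.9 CPM in 5-FU tumors, again without overlap, and its log2 fold change was -0.88 (SE 0.21, adjusted p = 0.0102). In 17.8% of all genes tested every 5-FU tumor lay under every PBS tumor. Atp6v1b2 was a DEG in 9 of 9 fits that each left out 1 tumor, and Atp6v1a in 7. Atp6v0d1 (98.1 ± 12.5 against 86.2 ± 18.7 CPM) and Atp6ap1 (217 ± 18.3 against 203 ± 47.6 CPM) were not DEGs.

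Among the other 14 pump subunits tested, 7 fell and 1 rose after 5-FU, with a median log2 fold change of -0.65. Atp6v0d2, the d subunit isoform of osteoclasts, fell the most, with -2.59 (SE 0.30, adjusted p = 0.000156) by edgeR, from 105 ± 9.92 to 17.4 ± 4.03 CPM. Atp6v1g1 and Atp6v0b fell by 1.04 and by 0.97, and Atp6v0a1 rose by 0.80. In the same tumors 6 of 7 osteoclast markers fell, and their summed level was 376 to 617 CPM against 1703 to 2714 CPM in PBS, with Acp5 at a log2 fold change of -3.06 and the collagen-degrading protease Ctsk at -2.64. Ctsk stands in the list of other hydrolases too, where 1 of 28 genes rose and 2 fell. The summed fibroblast markers were 5119 to 9258 CPM after 5-FU and 1576 to 4997 CPM in PBS. Without overlap, mesothelioma markers summed to 46.8 to 178 against 273 to 361 CPM (0 of 4 tested fell and 1, Wt1, rose), T cell markers to 36.1 to 411 against 24.6 to 31.4 CPM (5 of 6 rose), and endothelial markers to 128 to 294 against 62.9 to 123 CPM (2 of 4 rose). Muscle markers, none a DEG, summed to 7.91 CPM in the second 5-FU tumor and 835 to 1307 CPM in the others, against 101 to 167 CPM in PBS. The part of any of these markers in the pump result was not tested.

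**Figure D4:**
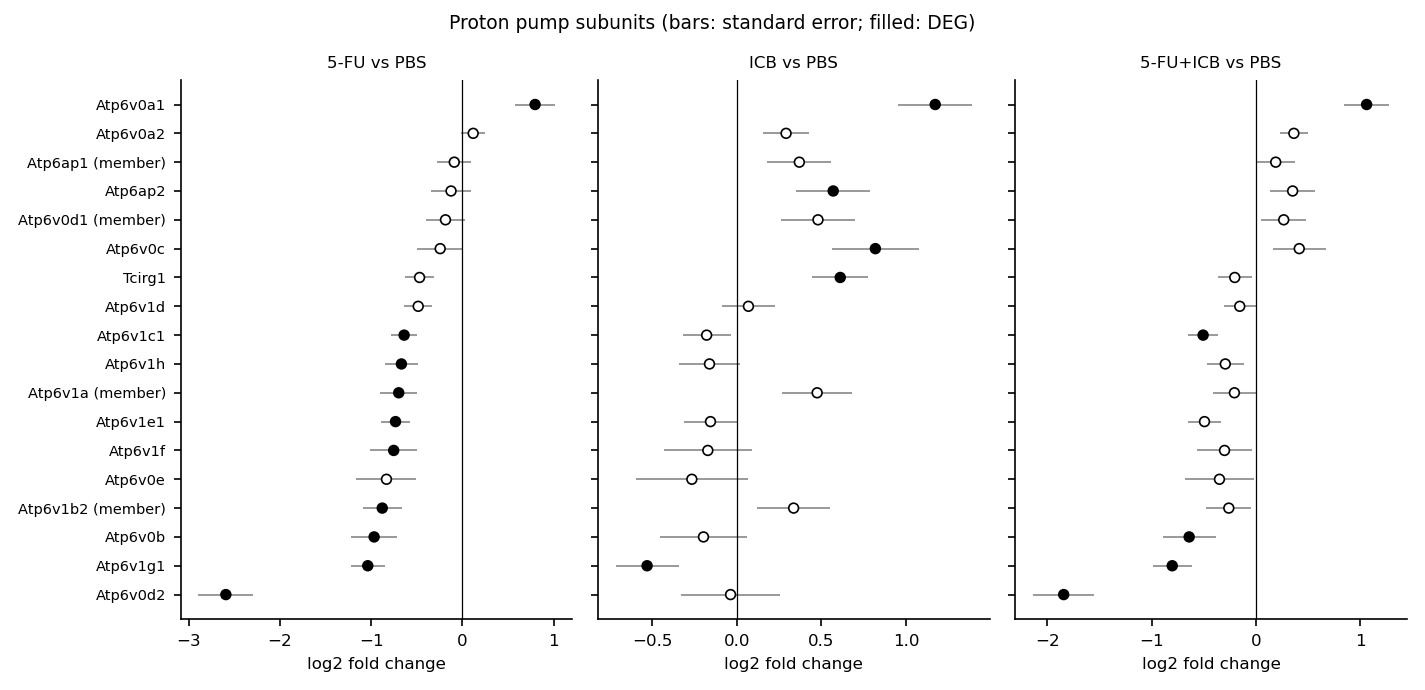
Log2 fold change against PBS with its SE (edgeR) of 18 tested subunits of the proton pump after 5-FU, ICB and 5-FU+ICB, with a scale of its own for each panel; filled points are DEGs. After 5-FU, 9 of the 18 subunits fell and 1 rose, Atp6v0d2 falling the most (-2.59).

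The genes that rose after 5-FU were of several roles. Npc1 was at 56.5, 58.8, 61.1, 69.2 and 97.7 CPM in 5-FU tumors, all above the highest PBS tumor (25.5 to 52.9 CPM), and showed a rise of 0.85 (SE 0.25, adjusted p = 0.0229) by edgeR. Manba was the other gene whose 5-FU tumors all lay above PBS, as in 9.27% of all genes, and was not a DEG. Ctsc was at 392, 406, 550.0, 722 and 1140.2 CPM, where the lowest 5-FU tumor lay just under the highest PBS tumor, and rose by 0.87 (SE 0.31, adjusted p = 0.0480). Gaa, the acid glucosidase that degrades glycogen, rose by 0.63 (SE 0.21, adjusted p = 0.0350), also with overlap. Npc1 was a DEG in 6 of the 9 fits with a tumor left out, Gaa in 3 and Ctsc in 2. Ctss was at 437, 573, 663, 1019 and 2681 CPM, and its log2 fold change of 1.26 (SE 0.55, adjusted p = 0.0971) by edgeR was 0.57 without the third 5-FU tumor. Psap, at 1327, 1518, 1556, 3076 and 7116 CPM, had 1.18 (SE 0.54, adjusted p = 0.110) by edgeR, and 0.53 without that tumor. Lamp1 (0.22), Gusb (0.30) and Tfeb (0.36) were not DEGs.

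Other lysosomal genes after 5-FU included Slc11a1, which rose by 1.92 (SE 0.62, adjusted p = 0.0314) by edgeR, Mcoln2 (1.44) and Laptm5 (1.28), both also higher, among 4 of 19 other membrane genes that rose, while 1, the lysosomal ion channel Tmem175, fell by 0.65. Of 14 regulators, Tfe3 rose by 0.60 and 2 fell, Lamtor1 and Lamtor2, which anchor mTORC1 signalling to the lysosome. Cstb, a cathepsin inhibitor, fell by 0.91. Of the 8 macrophage markers, 4 rose, and their sum was 2258 to 8206 CPM.

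With 5-FU+ICB, 15 of the 34 genes rose and 0 fell in edgeR's test against PBS, where 21.9% of all genes tested rose and 18.7% fell. DESeq2 called 17. The median log2 fold change was 0.69 over the 34 and -0.04 over all genes. In 5 of the 34, all 5-FU+ICB tumors lay above all PBS tumors, against 10.9% of all genes. By role, 1 of 4 membrane genes, 5 of 10 proteases, 5 of 9 glycosidases, 3 of 6 lipid genes and cofactors, 0 of 4 pump members and Tfeb rose. Of the 8 macrophage markers, 6 rose, with sums of 1837 to 8591 CPM. The sums of the following lists did not overlap with PBS. T cell markers (6 of 6 rose) summed to 49.1 to 1245 CPM against 24.6 to 31.4 CPM, endothelial markers (4 of 4 rose) to 150.4 to 616 against 62.9 to 123 CPM, and osteoclast markers (2 of 7 fell) to 266 to 1668 against 1703 to 2714 CPM. Mesothelioma markers summed to 37.8 to 169 against 273 to 361 CPM, where of the 4 tested 1 fell, Msln, and 2 rose, Wt1 and Krt19. Sums of other lists overlapped with PBS, among them those of monocyte (2 of 4 rose), dendritic cell (3 of 5) and B cell markers (3 of 4). The part of any of these lists in the result was not tested.

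Psap was at 1408, 5709.7, 7568, 8430.3 and 10132 CPM in 5-FU+ICB tumors, the lowest of them only a little above PBS, and rose by 2.38 (SE 0.57, adjusted p = 0.00362) by edgeR. Ctss was at 365, 1688, 2191, 2614 and 2922 CPM, with 1 tumor under all PBS tumors and 4 far above them, and rose by 2.13 (SE 0.57, adjusted p = 0.00703). Ctsh rose by 1.75, Ctsc by 1.53 and Lipa by 1.49 on the same scale. In the 9 fits with a tumor left out, Psap, Ctss and Ctsc were DEGs in 9, Ctsh in 6 and Lipa in 5. Ctsh was lost without the first, the third or the fourth PBS tumor, and Lipa without these or the fifth 5-FU+ICB tumor. Gusb was at 139, 159, 186, 187 and 219 CPM and rose by 0.56 (SE 0.19, adjusted p = 0.0222), while Tfeb, at 11.8, 20.0, 23.2, 24.6 and 41.9 CPM, rose by 0.89 (SE 0.31, adjusted p = 0.0280). The Gusb call was lost without the second PBS tumor or the first 5-FU+ICB tumor. The Tfeb call held in 5 of the 9 fits and was lost without the first, the second or the third PBS tumor and without the fifth 5-FU+ICB tumor, where the log2 fold change was 0.60. Lamp1, at 553, 928, 1227, 1276 and 1306 CPM, had a log2 fold change of 0.75 (SE 0.31, adjusted p = 0.0543) and missed the threshold. Atp6v1a, at 137, 145, 149.9, 185 and 189 CPM, overlapped with PBS and had -0.21 (SE 0.21, adjusted p = 0.424). Ctsl, at 591, 678, 868, 889 and 896 CPM, lay under all PBS tumors (907, 1054, 1151 and 1293 CPM), as 14.7% of all genes did, but its change was under the fold threshold. Without the second 5-FU+ICB tumor, 22 of the 34 genes were DEGs, as were 48.8% of all genes, and without the first PBS tumor 9 were, as were 32%.

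Cisplatin alone was compared with PBS in the same way. None of the 34 genes was a DEG in edgeR's test, 0 had an unadjusted p under 0.05 and DESeq2 also called 0, where edgeR called 0% of all 17819 genes. Of these 17819, 317 had an unadjusted p under 0.05. The median log2 fold change was -0.02 over the 34 and -0.01 over all genes. Ctss was at 267, 345, 691 and 696 CPM, a range that enclosed PBS, and its log2 fold change was 0.15 (SE 0.43, adjusted p = 1.00). Psap was at 1042, 1282, 1324 and 1650.0 CPM, around the PBS values, with 0.03 (SE 0.48, adjusted p = 1.00) by edgeR. Lamp1 had -0.05 (SE 0.23, adjusted p = 1.00), Gusb 0.06 (SE 0.32, adjusted p = 1.00), Atp6v1a -0.06 (SE 0.23, adjusted p = 1.00) and Tfeb -0.11 (SE 0.25, adjusted p = 1.00) by edgeR.

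With cisplatin+ICB, Ctss alone passed the thresholds against PBS in edgeR's test, where 4.7% of all genes tested rose and 1.4% fell. It was at 551, 730.5, 1461, 2053 and 2083 CPM, 1 tumor within the PBS range and the other 4 above, a rise of 1.62 (SE 0.43, adjusted p = 0.0356). Ctss included, 11 of the 34 had an unadjusted p under 0.05, as had 4204 of all 17819 genes, and DESeq2 called 5. Psap was at 811, 1514, 4747, 5112 and 5659 CPM, with 1 tumor under all PBS tumors, and had 1.46 (SE 0.47, adjusted p = 0.0697) by edgeR. Without the first cisplatin+ICB tumor, the log2 fold change of Psap was 1.79 (adjusted p = 0.0034, edgeR) and 8 of the 34 genes were DEGs, all higher, where 18.2% of all genes rose. Without the third, 6 were, all higher, where 6.48% of all genes rose, and 0 were when any of the other 3 was left out, or any PBS tumor but the second. The call of Ctss held in 2 of the 9 fits with a tumor left out, those without the first or the third cisplatin+ICB tumor. It was lost without any one of the PBS tumors and of the other 3 cisplatin+ICB tumors. Lamp1 (0.33), Gusb (0.02), Atp6v1a (-0.14) and Tfeb (0.19) were not DEGs with all tumors. Of the 8 macrophage markers 1 rose, and their summed level was 2114 to 3987 CPM. Neutrophil markers (4 of 4 rose) summed to 33.9 to 105 against 9.11 to 17.9 CPM and Ptprc was at 118 to 361 against 75.0 to 105 CPM, both without overlap. T cell (5 of 6 rose) and monocyte markers (2 of 4) had sums that overlapped with PBS. The part of these markers in the result was not tested. Against cisplatin alone, 0 of the 34 were DEGs in edgeR's test, as were 0% of all genes, and DESeq2 called 3. An unadjusted p under 0.05 by edgeR was found for 10 of the 34 and for 2530 of all 17819 genes. Without the same first tumor, 9 were DEGs, all higher, where 8.31% of all genes rose.

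The combinations were also compared with ICB alone, which asks what chemotherapy changes in these genes in the presence of checkpoint blockade. For 5-FU+ICB against ICB, 0 of 34 were DEGs in edgeR's test (5 at an unadjusted p under 0.05, 0 by DESeq2), as were 0.229% of all genes, with a median log2 fold change of -0.41 over the 34. Of all 17916 genes tested, 1947 had an unadjusted p under 0.05. In that comparison 2 other pump subunits fell, both known for their part in osteoclasts. The log2 fold change by edgeR was -1.80 (SE 0.28, adjusted p = 0.0161) for Atp6v0d2 and -0.81 (SE 0.15, adjusted p = 0.0362) for Tcirg1. The osteoclast markers summed to 266 to 1668 CPM after 5-FU+ICB against 941 to 3483 CPM after ICB. In edgeR's test 0 of these 7 markers were DEGs in that comparison, and their part in the result was not tested. For cisplatin+ICB against ICB, 0 of 34 were DEGs (23 at an unadjusted p under 0.05, 0 by DESeq2), and 0% of all genes were, with a median of -0.62. Of all 17819 genes tested, 2839 had an unadjusted p under 0.05. In 5 genes, Glb1, Manba, Ctsa, Ctsc and Grn, every cisplatin+ICB tumor lay under every ICB tumor, as in 1.28% of all genes. Ctsa, a carboxypeptidase that protects Glb1 and Neu1, was at 267, 282, 452, 476 and 489.8 CPM after cisplatin+ICB and 499, 539.7, 689, 859 and 942 CPM after ICB. The groups were close at the nearest tumors. For 5-FU+ICB against 5-FU, 0 of 34 were DEGs (11 unadjusted, 0 by DESeq2), as were 0.0112% of all genes. An unadjusted p under 0.05 was found for 2983 of all 17916 genes. Without the second 5-FU+ICB tumor 7 rose, as did 8.09% of all genes, and without the third 5-FU tumor 6 rose, as did 3.38%.

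The chemotherapies were compared with each other too. For 5-FU against cisplatin, 0 of 34 were DEGs by edgeR (5 at an unadjusted p under 0.05, 0 by DESeq2), against 0.362% of all 18521 genes tested. An unadjusted p under 0.05 was found for 2876 of those 18521 genes. The beta-mannosidase Manba lay higher in every 5-FU tumor (31.2, 31.7, 35.0, 43.1 and 70.5 CPM) than in every cisplatin tumor (22.9, 25.9, 26.6 and 30.1 CPM), as 5.29% of all genes did. For 5-FU+ICB against cisplatin+ICB, 0 of 34 were DEGs by edgeR (1 by DESeq2), against 0.297% of all 18521 genes. An unadjusted p under 0.05 by edgeR was found for 2 of the 34 and for 4754 of the 18521. Without the second 5-FU+ICB tumor 2 were DEGs, as were 11.6% of all genes. Without the fifth cisplatin+ICB tumor 1 was, as were 6.1% of all genes. An interaction asks whether the effect of a chemotherapy differs with and without ICB. It was found in 0 of 34 genes for 5-FU by edgeR (2 by DESeq2, 0.0893% of all genes) and in 0 of 34 for cisplatin (0 by DESeq2, 0% of all genes). For 5-FU, 9 of the 34 and 4283 of all 17916 genes had an unadjusted p under 0.05 by edgeR. For cisplatin, 6 of the 34 and 1273 of all 17819 genes did. For 5-FU, 2 passed without the third PBS tumor and 1 without the fourth, as did 9.27% and 5.56% of all genes. For 5-FU, the interaction of Ctss was -1.93 (SE 0.75, adjusted p = 0.128) and that of Psap -1.61 (SE 0.73, adjusted p = 0.187), both by edgeR. These comparisons share PBS, ICB or chemotherapy tumors with the ones above.

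Because macrophages carry many lysosomes, the genes were also read against Cd68, itself a glycoprotein of macrophage lysosomes. Cd68 was at 189, 193, 207 and 215 CPM in PBS tumors and 337, 348, 457, 621 and 744 CPM in ICB tumors, and rose by 1.34 (SE 0.30, adjusted p = 0.00279) by edgeR. Its log2 fold change was -0.25 after 5-FU, 0.51 after 5-FU+ICB and 0.40 after cisplatin+ICB, none of which passed the test. The mean of the 34 genes minus Cd68, in log2 CPM, was -0.42 ± 0.07 in PBS, -0.60 ± 0.16 in ICB, 0.03 ± 0.11 in 5-FU, -0.14 ± 0.05 in cisplatin, -0.17 ± 0.31 in 5-FU+ICB and -0.33 ± 0.35 in cisplatin+ICB tumors. All 5-FU tumors (-0.13 to 0.13) and all cisplatin tumors (-0.21 to -0.09) lay above the PBS tumors (-0.49 to -0.32), whereas the other groups overlapped with them. Relative to Cd68, the median log2 fold change after 5-FU was 0.34 over all genes and 0.42 over the 34. Cd68 was at 168 ± 57.0 CPM after 5-FU and 201 ± 11.8 CPM in PBS. The 8 macrophage markers together summed to 3935 ± 2484 CPM after 5-FU and 1882 ± 349 CPM in PBS. With those 8 markers as the reference, 0 of the 34 rose after 5-FU and 10 fell, as did 10.2% of all genes. For cisplatin, Cd68 had a log2 fold change of -0.28 (SE 0.31, adjusted p = 1.00, edgeR), and relative to Cd68 the median over all genes was 0.28, next to 0.26 over the 34. Single tumors weighed on the combinations. In 5-FU+ICB the fifth tumor was at 0.37 and the median was -0.33, and the difference from PBS was 0.25 with it and 0.11 without it. In cisplatin+ICB the first tumor was at 0.26 and the median was -0.46, and the difference from PBS was 0.089 with it and -0.058 without it. Against ICB, the difference was 0.43 for 5-FU+ICB and 0.27 for cisplatin+ICB, the latter 0.12 without the first cisplatin+ICB tumor. Between the combinations it was 0.16, which was 0.025 without the fifth 5-FU+ICB tumor and 0.31 without the first cisplatin+ICB tumor. From the chemotherapy alone, it was -0.20 for 5-FU+ICB and -0.19 for cisplatin+ICB, and -0.33 in both without those same tumors. With the median of the 34 genes in place of the mean, the difference from PBS on this scale was -0.031 for 5-FU instead of 0.45, -0.65 for ICB instead of -0.18, -0.21 for 5-FU+ICB instead of 0.25 and -0.26 for cisplatin+ICB instead of 0.089.

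In a fit in which the Cd68 count took the place of the library size, all genes shifted, so that the median of all genes moved by -1.24 for ICB against PBS. On that scale 3 of the 34 rose after ICB, Ctss by 1.49 (SE 0.38, adjusted p = 0.00266), Psap by 1.43 (SE 0.38, adjusted p = 0.00319) and Ctsc by 0.80 (SE 0.24, adjusted p = 0.00725), against 3.75% of all genes. Another 9 fell, against 58.5% of all genes, so that their fall was shared by most genes. The largest falls were those of Ctsl (-1.61), Glb1 (-1.12), Asah1 (-0.93), Atp6v1b2 (-0.92) and Atp6ap1 (-0.89). The pump mean minus Cd68 was -0.16 ± 0.10 in PBS and -1.03 ± 0.22 in ICB tumors.

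After 5-FU, 7 genes rose relative to Cd68 and 0 fell, against 8.74% of all genes that rose, with a shift of 0.34 for the median of all genes. Ctss rose by 1.33 (SE 0.38, adjusted p = 0.0294) and Psap by 1.25 (SE 0.37, adjusted p = 0.0380), both by edgeR, followed by Npc1 (1.09), Ctsc (1.07) and Grn (0.97). With Ptprc as the reference 0 rose and 3 fell, as did 2.39% of all genes. With all macrophage markers as the reference 0 rose and 10 fell, as did 10.2%. Relative to Cd68 the count was 1 to 3 without any one PBS tumor, where 2.61% to 6.02% of all genes rose. It was 3 without the third 5-FU tumor and 2 without the fifth, where 8.07% and 4.68% rose. After 5-FU+ICB, 6 rose, against 10.5% of all genes and with a shift of -0.35. Psap rose by 1.86 (SE 0.38, adjusted p = 0.00288) and Ctss by 1.56 (SE 0.38, adjusted p = 0.00942), both by edgeR, and with Ptprc as the reference 0 rose. Relative to Cd68, 10 rose and 5 fell without the second 5-FU+ICB tumor, where 15.2% of all genes rose and 39.5% fell. Without the fifth, without the first PBS tumor or without the third PBS tumor 3 passed, where 9.88%, 6.61% and 9.84% of all genes did.

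Relative to Cd68, cisplatin against PBS gave 0 DEGs among the 34 by edgeR (0 at an unadjusted p under 0.05, 0% of all genes), and cisplatin+ICB against PBS gave 0 (5 unadjusted, 1.1% of all genes). Of all 17818 genes tested, 526 and 1981 had an unadjusted p under 0.05. There were also 0 for 5-FU+ICB against 5-FU (3 unadjusted, 0.0279% of all genes), for cisplatin+ICB against cisplatin (3 unadjusted, 0%), for 5-FU against cisplatin (5 unadjusted, 0.61%) and between the combinations (4 unadjusted, 0.81%), and DESeq2 was not run on this scale. In that order, 4706 of all 17915, 2745 of 17818, 1816 of 18520 and 4191 of 18520 genes had an unadjusted p under 0.05. Without the first cisplatin+ICB tumor 9 passed against PBS, as did 32.9% of all genes, and 12 against cisplatin, as did 44.4%. Without the second 5-FU+ICB tumor 7 passed against 5-FU, as did 56.3% of all genes, and 3 between the combinations, as did 16.8%. Against ICB, 7 rose relative to Cd68 after 5-FU+ICB (42.2% of all genes did, shift 0.92) and 4 after cisplatin+ICB (51.9% of all genes did, shift 1.03). Leaving out 1 tumor moved these counts between 0 and 11 and between 0 and 8, with 0 left without the fifth 5-FU+ICB tumor, and 0 without the first cisplatin+ICB tumor, the third ICB tumor or the fifth ICB tumor. In the fits with 11 and with 8, 58.4% and 57% of all genes rose, and without the fifth 5-FU+ICB tumor 4.91% did.

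**Figure D5:**
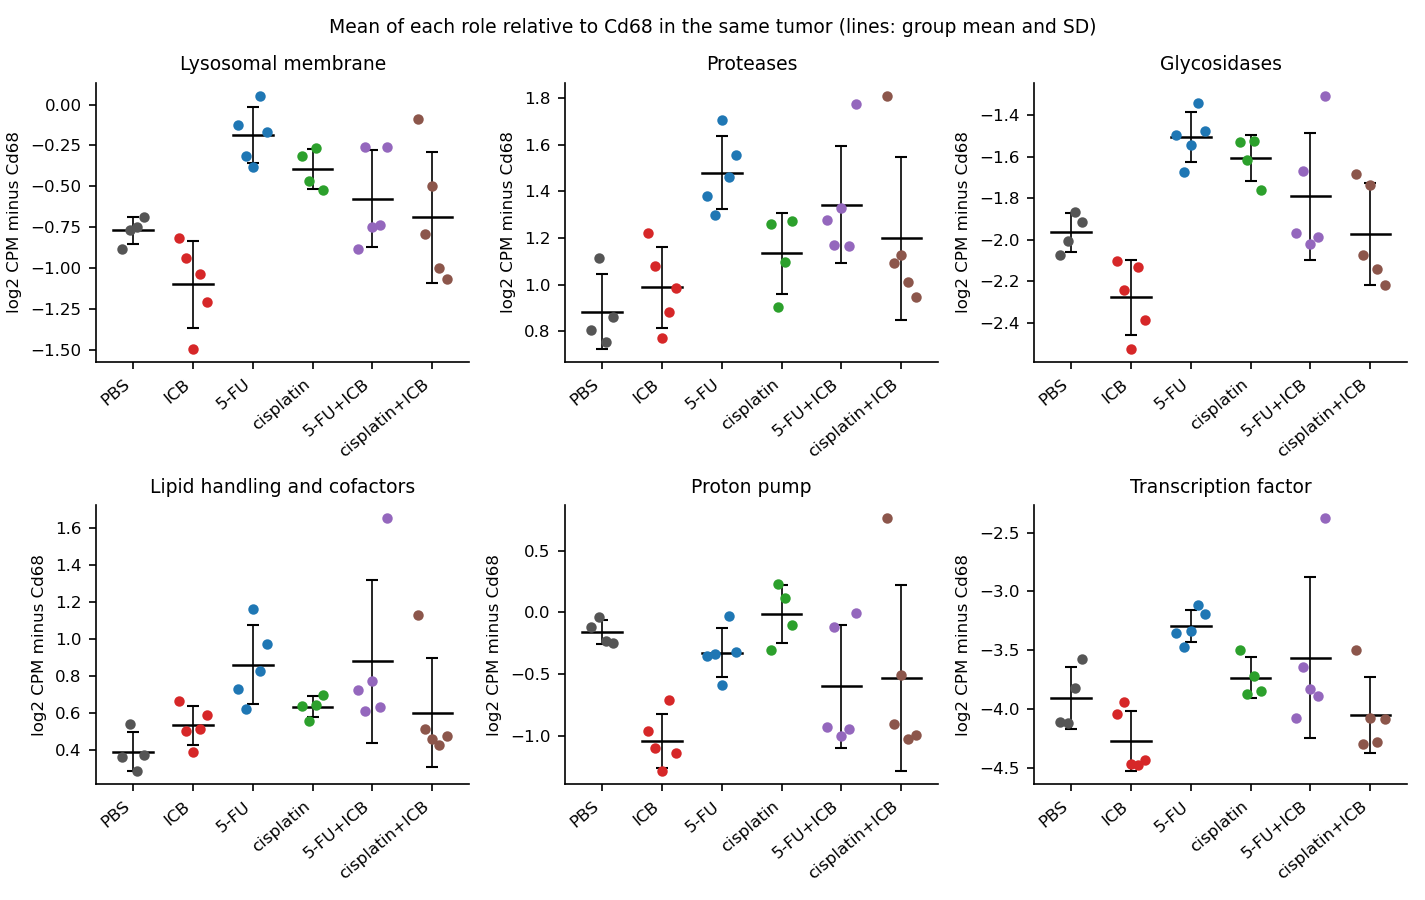
Mean log2 CPM of the genes of each role minus the log2 CPM of Cd68 in every tumor, by treatment group, in 6 panels (membrane, proteases, glycosidases, lipid and cofactors, proton pump, Tfeb), with group mean and SD. The pump panel shows ICB tumors (mean -1.03) under PBS tumors (mean -0.16), on a scale where the median of all genes moved by -1.24 for ICB against PBS.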

How the data were processed

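RNA of 28 whole tumors was sequenced as 100-base single-end reads. With kallisto 0.46.0 the authors mapped them to mouse transcripts (GRCm38, mm10). Gene sums were made with tximport, and the deposited values are estimated counts, not normalized, in 2 files. Both files hold the same PBS and ICB tumors. Fractions made up 23.7% of the entries and were rounded to whole numbers. Another 26 gene names had been turned into dates, and 18393 genes had 0 counts in every tumor. Multi-mapped reads are shared out by kallisto between transcripts, so genes that overlap another gene on the same strand, such as Glb1 and Ctsd, are less certain. The gene spans of Ctsl, Ctss and Manba also overlap a pseudogene on the same strand.

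In R 4.3.3 with edgeR 4.0.16, genes were filtered by group (filterByExpr), normalized by TMM and tested with the quasi-likelihood test (glmQLFit, glmQLFTest), with all groups of a file in the model and p-values adjusted over all genes by the Benjamini-Hochberg method. Thresholds were an adjusted p of 0.05 and an absolute log2 fold change of 0.5. Comparisons between the chemotherapies used the 2 files joined. For values relative to Cd68, each library size was replaced by its Cd68 count. The mean of the 34 genes is that of log2 CPM with a prior count of 2. Standard errors came from the F statistic. The procedure was tested on simulated data. P-values measure the spread between separate tumors of 1 cell line.

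The 34 genes and the other lists were chosen with earlier results of these data known. All 34 may be named with their levels. Fold changes are printed for at most the 5 largest rises and 5 largest falls among DEGs and, in whatever direction, for Lamp1, Ctss, Gusb, Psap, Atp6v1a and Tfeb, and for at most 3 DEGs per direction of each other list, and for Cd68 as the reference. Alternatives were DESeq2 1.42.0, its size factors, no filter or a minimum of 10 counts, a replicate block, other groupings, other references in place of Cd68, the median of the 34 genes and each tumor left out. Proteins, reads and flow cytometry were not analysed here. Sex and age come from the study's methods.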

Additional observations from a re-analysis of the deposited data

Results flagged for a closer look

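Of 54 groups of values tested with Dixon's test for a single distant tumor, 4 held one, where chance alone flags about 1 in 20 groups. In the third 5-FU tumor Lamp1 was at 1264 CPM, with 744 CPM as the next highest, and Ctss was at 2681 CPM, with 1019 CPM as the next highest. In the third cisplatin+ICB tumor Lamp1 was at 575 CPM, with 814 CPM as the next lowest. In the first cisplatin+ICB tumor Gusb was at 37.2 CPM, with 136 CPM as the next lowest.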

How the results depend on the processing

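Of 594 values under alternatives, 577 kept their direction and 509 their side of the threshold. The 25 genes that rose after ICB were all called by DESeq2 and with its size factors, without the filter and with the minimum of 10 counts, and 21 of them with the replicate block. For 5-FU against PBS, 2 genes were called without the filter and 2 in a model of all 6 groups. For cisplatin+ICB against PBS, DESeq2 called 5 genes, its size factors 2, the minimum of 10 counts 2, the replicate block 0 and the model of all 6 groups 0. DESeq2 called 3 for cisplatin+ICB against cisplatin, 1 between the combinations and 2 for the interaction of 5-FU and ICB. For DESeq2, its size factors, the other filters, the replicate block and the model of all 6 groups, the share of all genes called is not given. The counts under those settings, here and above, are therefore not set against a background. Causes were not tested.

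Scaling to another reference shifts all genes alike. Relative to Ptprc in place of Cd68, 22 genes were called for ICB (21 lower, as were 75.1% of all genes), 3 for 5-FU (all lower, as were 2.39%), 25 for 5-FU+ICB (all lower, as were 61.7%) and 12 for cisplatin+ICB against PBS (all lower, as were 36.0%), and 0 for either combination against ICB. Relative to all macrophage markers, 24 were called for ICB (22 lower, as were 72.7% of all genes), 17 for 5-FU+ICB (all lower, as were 46.4%) and 0 for 5-FU+ICB against ICB. On that scale 10 were called for 5-FU, all lower, as were 10.2% of all genes. For cisplatin+ICB against ICB 4 were called, all higher, as were 53.3%. With the replicate block in the Cd68 fit, 2 were called for 5-FU, 3 for 5-FU+ICB, 2 for 5-FU+ICB against ICB and 0 for cisplatin+ICB against ICB. All those called were higher, as were 5.46%, 6.56%, 24.3% and 0% of all genes, in the same order. With the median of the 34 genes in place of their mean, the difference from PBS in log2 CPM was 0.60 for ICB (-0.65 minus Cd68), -0.34 for 5-FU (-0.031 minus Cd68), 0.20 for 5-FU+ICB (-0.21 minus Cd68) and 0.012 for cisplatin+ICB. It was 0.11 for cisplatin+ICB against cisplatin, and -0.22 minus Cd68 for 5-FU against cisplatin.

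The replicate numbers do not pair the tumors, each from its own mouse, and the block called 22 genes for ICB, 4 for 5-FU and 11 for 5-FU+ICB.

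With each tumor left out in turn, the genes called ranged from 21 to 26 for ICB, 1 to 4 for 5-FU (1 without PBS replicate 1 or 2), 9 to 22 for 5-FU+ICB, 0 to 8 for cisplatin+ICB against PBS, 0 to 9 against cisplatin, 0 to 7 for 5-FU+ICB against 5-FU, 0 to 2 between the combinations and 0 to 2 for the interaction of 5-FU and ICB. In the fits with the highest count, 37.2% or 39.8% of all genes were called for ICB and 19.9% to 25.9% for 5-FU. For the ranges after these, in the order given, the share was 48.8%, 35.3%, 11.9%, 10.9%, 11.6% and 9.27%. Relative to Cd68 the genes called ranged from 10 to 14 for ICB, 1 to 6 for 5-FU, 3 to 15 for 5-FU+ICB, 0 to 11 for 5-FU+ICB against ICB, 0 to 7 against 5-FU, 0 to 9 for cisplatin+ICB against PBS, 0 to 8 against ICB, 0 to 12 against cisplatin and 0 to 3 between the combinations. In the fits with the highest count, the share of all genes called was 62.3%, 9.2%, 54.6%, 58.5%, 56.3%, 32.9%, 57.1%, 44.4% and 16.8%, in the same order.

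Fold changes near 0 changed sign. For Gusb after cisplatin+ICB, the log2 fold change against PBS was -0.11 with the replicate block and ranged from -0.11 (without PBS replicate 2) to 0.33 (without cisplatin+ICB replicate 1) over the fits that left out a tumor. For Atp6v1a it was 0.0047 with the minimum of 10 counts. For Lamp1 after 5-FU it ranged from -0.065 (without 5-FU replicate 3) to 0.37. For cisplatin against PBS it ranged from -0.19 to 0.071 for Lamp1, -0.079 to 0.35 for Ctss, -0.067 to 0.15 for Gusb, -0.10 to 0.12 for Psap and -0.16 to 0.054 for Atp6v1a.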
